A study of Bubalus bubalis with 6 samples.

Results

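This report describes the circRNAs of host genes that gave exactly 1 circRNA in the blood of Jianghuai buffalo. Of 57308 circRNAs, 2353 lay in intergenic regions and 54955 had a named host gene. The circRNAs of each host were counted, and those whose host occurred once were kept. They numbered 2348 and came from 2348 of 8611 host genes, or 27.27% of the hosts. They made up 4.27% of the circRNAs with a named host. The other 6263 hosts gave 52607 circRNAs, with a maximum of 96 for a single gene. These 2348 circRNAs were thus selected on detection in these same 6 libraries, so their number, read depth and pattern of detection are given as a description with no test.

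Whole blood was drawn from the jugular vein of 3 pregnant (P-Buffalo) and 3 non-pregnant (C-Buffalo) Jianghuai buffaloes on day 25, counted from the insemination of the pregnant group. The cows were 3 to 5 years old, were kept on 1 farm under the same conditions, and had their oestrus synchronised with a prostaglandin analog. The pregnant cows had been inseminated and were diagnosed by ultrasound on day 60, while the non-pregnant cows were not inseminated, so the effects of pregnancy and of insemination are not separable. One library was made per animal from RNA that was freed of ribosomal RNA and digested with RNase R, and both groups were treated alike.

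A circRNA forms when the spliceosome joins the end of an exon to the start of the same or an upstream exon, a step called back-splicing. Pairing between the flanking introns can bring these ends together, and 1 gene can give many circles that differ in their exons. An intronic circRNA (ciRNA) is instead the lariat of an excised intron that escaped debranching, trimmed back towards the branch point. Both kinds lack free ends, resist RNase R, and are counted through reads that cross the junction. A gene with 1 circle therefore offers a simple case, in which the level of the gene's circular RNA is the level of a single junction.

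The libraries held between 815851 and 1298753 counted reads. Non-pregnant replicate 2 stood apart from the rest. Its normalisation factor was 0.467, against 1.09 to 1.25 in the other 5 libraries, and 336 circles of single-circRNA hosts were read in it, against 547 to 911 in the others. The median depth of a detected circle of these hosts was 2 reads in non-pregnant replicate 2 and 6 to 8 reads elsewhere. Log2 fold changes of tested circles that rest on this library are given with and without it. Fits without a filter on low counts were not repeated without it. Not all markers of blood cells were hosts of circRNAs. Hosts were 5 of 6 leukocyte markers (8023 reads in all), 8 of 12 of T cells (15342) and 6 of 8 of B cells (2469). Of platelets they were 6 of 10 (4537 reads) and of erythroid cells 7 of 12 (7806). Of neutrophils they were 5 of 9 (937), of monocytes 2 of 6 (126), of NK cells 1 of 7 (3) and of eosinophils 1 of 5 (1). Markers without a circRNA included CD3D, CD8A, CD79A, PF4, HBB and CD14. Of 9 gene symbols listed as markers of liver, epithelium and trophoblast, 2 were hosts (PAG1 and EPCAM). They had 16 circRNAs, with 78, 36 and 32 reads in the pregnant libraries and 11, 7 and 25 in the non-pregnant libraries. EPCAM gave 1 of these circRNAs, with 6 reads in non-pregnant replicate 1, and the rest came from PAG1. Whether PAG1 here names the placental gene was not checked, so these reads are no measure of such cells. The part of such cells in the results was not tested.

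The circles of single-circRNA hosts were mostly exonic and short. Of the 2348, 1832 (78.0%) were exonic and 516 (22.0%) were intronic. Among the exonic circles, 306 held 1 exon, 792 held 2, 376 held 3, 189 held 4 and 169 held 5 or more. The commonest form was thus a circle of 2 exons, with 43.2% of the exonic circles. The exonic circles spanned a median of 1853.5 bp of genome and the intronic circles a median of 493.5 bp. The plus strand held 50.2% of them. Of the hosts, 411 (17.5%) carried only a LOC identifier, against 10.7% of hosts with exactly 2 circRNAs and 6.75% with 2 or more. Such loci can be near-identical copies of other genes, whose reads the counting could split, and values of LOC hosts are uncertain for that reason.

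The circles at the extremes of size came from genes of unlike kinds. Among those with at least 10 reads, the circle with the most exons came from FADS3, a fatty acid desaturase, with 10 exons over 4121 bp (circRNA43547). It had 0, 9 and 5 reads in the pregnant libraries and none in the non-pregnant libraries. The longest span belonged to MACROD2, a macrodomain deacylase encoded by a very large gene, whose circle of 2 exons covered 89048 bp (circRNA12132). The shortest was an intronic circle of 124 bp from AAAS, a nucleoporin (ciRNA193). AAAS had 0, 0 and 3 reads in the pregnant libraries and 18, 3 and 0 in the non-pregnant libraries. All 3 of these circles were thinly read, and each was at 0 in at least 2 libraries.

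Most circles of single-circRNA hosts were rare and were seen in 1 animal. Over the 6 libraries their median was 6 reads, 678 of them (28.9%) had at most 3 reads, and 205 had 1 read. At the other end, 123 had at least 100 reads and 9 had at least 1000. In 1663 circles (70.8%) all reads came from 1 library, whereas 92 (3.92%) were read in all 6. The 92 circles held 65.1% of the reads of the 2348, with a median of 186 reads, and the 1663 held 11.9%, with a median of 4 reads. Reads in both groups were found for 553 circles, in pregnant libraries only for 1050 and in non-pregnant libraries only for 745. Depth differed between libraries, and 548 to 911 of the circles were read in a pregnant library and 336 to 877 in a non-pregnant library. Of the circRNAs of other hosts, 55.6% were read in 1 library and 8.31% in all 6.

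**Figure D1:**
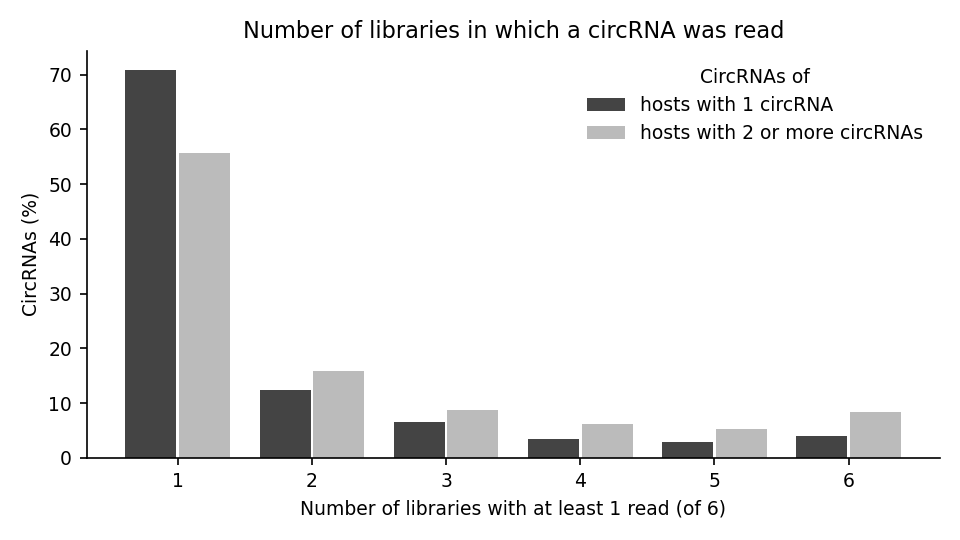
Share of circRNAs (y axis, %) by the number of libraries with at least 1 read (x axis, 1 to 6), for hosts with 1 circRNA (dark bars) and hosts with 2 or more circRNAs (light bars). The bars for 1 library stand at 70.8% and 55.6%, and those for 6 libraries at 3.92% and 8.31%.

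Hosts just past the limit were close to those inside it. The 1240 hosts with 2 circRNAs gave 2480 circles, with a median of 7 reads and 20.3% intronic circles. Of these circles, 65.2% were read in 1 library and 5.20% in all 6. Their exonic circles spanned a median of 2418 bp, and 12.7% of them held a single exon, against 16.7% in single-circRNA hosts. The limit also depends on what counts as a circRNA. When only circRNAs read in at least 2 libraries were counted, 2069 hosts had 1 circRNA (34.7% of the hosts left), and 685 of the 2348 circles were among them. With a minimum of 5 reads in a library, 1374 of the 2348 remained. A total of 82 circles overlapped another circRNA on the same strand, 68 of them an intergenic one, and reads of such neighbours were not separated further.

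A few circles carried a large part of the reads. The most abundant came from ECH1, a dienoyl-CoA isomerase of fatty acid beta-oxidation in mitochondria and peroxisomes. This circle (circRNA7557) joins 2 exons over 419 bp of the minus strand, NC_037562.1:48352994-48353412. It had 2132, 4127 and 2918 reads in the pregnant libraries and 2767, 1518 and 2104 in the non-pregnant libraries. ECH1 ranked first among the circles of single-circRNA hosts in all 6 libraries and 25 among all circRNAs by total reads. It held 17.0% of the reads of the 2348 circles, between 11.6% and 23.4% by library. In hosts with 2 circRNAs the first circle held 4.84% of the reads. The 10 most abundant circles held 42.3% of the reads in single-circRNA hosts, against 24.8% in hosts with 2 circRNAs and 13.1% in hosts with 2 or more.

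The ECH1 level was 2504 ± 661 CPM in pregnant and 2530 ± 994 CPM in non-pregnant animals (SD, n = 3 each), where CPM is the count scaled to the TMM-normalised library size (counts per 1e+06). The log2 fold change of pregnant over non-pregnant was -0.01 with a standard error of 0.52. Its sign turned positive under other totals (0.46 with the library totals implied by SRPBM), so no direction can be given.

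An intronic circle came second in reads. It arose from RAB19, a small GTPase of the Rab family that acts in vesicle traffic, and spans 357 bp at NC_037552.1:103496786-103497142 on the minus strand (ciRNA1627). RAB19 had 1232, 1508 and 561 reads in the pregnant libraries and 884, 467 and 1026 in the non-pregnant libraries. The groups overlapped, with mean levels of 873 ± 280 CPM in pregnant and 879 ± 175 CPM in non-pregnant animals (SD, n = 3 each). The sign of its log2 fold change (-0.01) also turned with the library totals. Of the 92 circles read in every library, 8 were intronic, among them those of RAB19, PQLC3, BCL3, RCC2 and RBFOX2. CHORDC1, a co-chaperone of heat shock proteins, gave a circle of 3 exons (circRNA11458) with 733, 1339 and 607 reads in the pregnant libraries and 862, 679 and 1407 in the non-pregnant libraries. PCSK7, a proprotein convertase of the secretory pathway, gave a circle of 2 exons (circRNA9398) with 829, 1046 and 378 reads in the pregnant libraries and 498, 255 and 678 in the non-pregnant libraries. Neither circle separated the groups.

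The remaining abundant circles varied more between animals. The single-exon circle of ZNF608, a zinc finger protein, had 92, 499 and 137 reads in the pregnant libraries and 442, 13 and 723 in the non-pregnant libraries (circRNA1491). Its lowest and its highest value were both in non-pregnant animals. LOC102405685, annotated as myeloid-associated differentiation marker-like, gave a single-exon circle (circRNA15309) with 560, 264 and 371 reads in the pregnant libraries and 134, 207 and 138 in the non-pregnant libraries. Its groups were apart in reads but not in CPM after TMM, with 457, 186 and 365 CPM in the pregnant libraries and 126, 476 and 98.7 CPM in the non-pregnant libraries. The overlap in CPM came from non-pregnant replicate 2 alone, and the log2 fold change was 0.53 with all libraries and 1.56 without that one. PYROXD1, a nuclear and cytoplasmic oxidoreductase, had 205, 258 and 197 reads in the pregnant libraries and 143, 34 and 424 in the non-pregnant libraries (circRNA3142). Its pregnant values lay within the range of the non-pregnant ones.

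**Figure D2:**
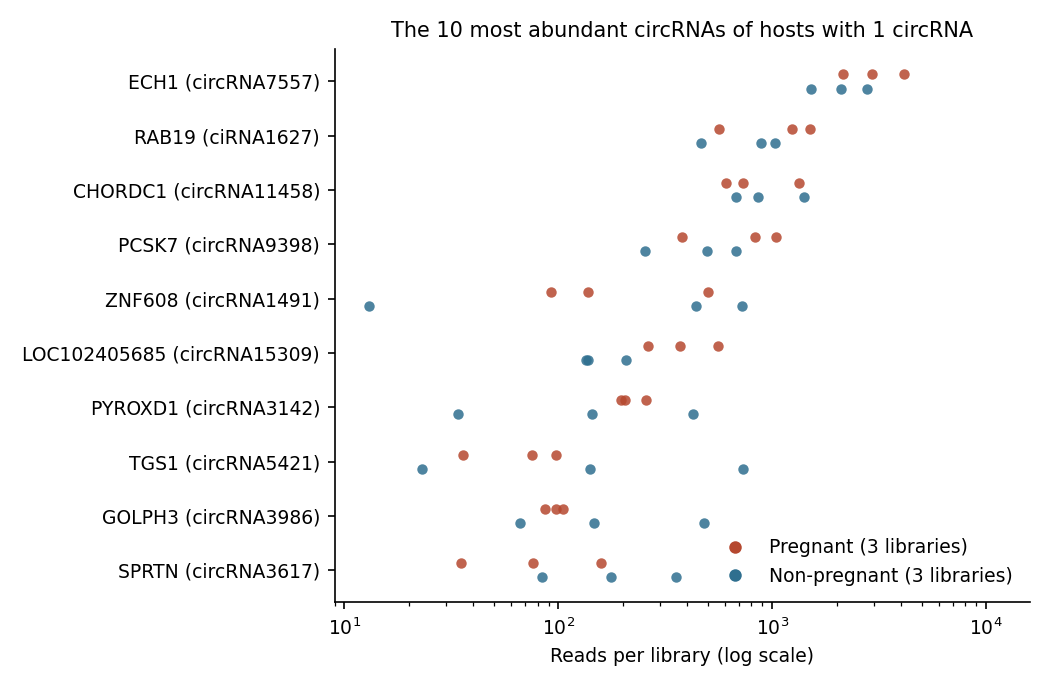
Reads per library (x axis, log scale) of the 10 circles with the highest mean level among hosts with 1 circRNA (y axis), with pregnant libraries in red above non-pregnant libraries in blue. ECH1 stands at 1518 to 4127 reads in every library, while ZNF608 ranges between 13 and 723 reads.

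In 3 of the 10 abundant circles, non-pregnant replicate 2 held far more reads than any other library. TGS1, the methyltransferase that makes the trimethylguanosine cap of small nuclear RNAs, had 75, 98 and 36 reads in the pregnant libraries and 23, 730 and 141 in the non-pregnant libraries (circRNA5421). GOLPH3, a phosphoinositide-binding protein of the Golgi, had 105, 98 and 87 reads in the pregnant libraries and 66, 482 and 147 in the non-pregnant libraries (circRNA3986). SPRTN, a protease that removes proteins crosslinked to DNA, had 35, 158 and 76 reads in the pregnant libraries and 84, 354 and 176 in the non-pregnant libraries (circRNA3617). Each circle holds 2 exons. The log2 fold changes were -3.44 for TGS1, -2.40 for GOLPH3 and -2.24 for SPRTN. Without non-pregnant replicate 2 they were -0.19, -0.10 and -0.55.

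The same library stood out among circles read in a single animal. At 50 or more reads there were 19 such circles, of which 18 were read in non-pregnant replicate 2 and 1, from the kinase gene PAK5, in pregnant replicate 2. The largest was an intronic circle of FILIP1, a filamin-interacting protein, with 233 reads (ciRNA2525). A circle of IFIT2, an interferon-induced antiviral protein, had 214 reads (circRNA19551), and one of CEP41, a centrosomal protein, had 194 reads (circRNA18607). A circle of GRM5, a metabotropic glutamate receptor, had 162 reads (ciRNA2392). None of these 4 was read in another library, and 8 of the 18 were intronic. Among hosts with 2 or more circRNAs, 302 circles with at least 50 reads were read in non-pregnant replicate 2 alone, against 14 to 38 in any other library alone. The part of depth or library preparation in this was not tested.

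To see what the circles of single-circRNA hosts share beyond the rule, their structure was compared within each library with that of the circRNAs of hosts with 2 or more. Single-exon circles were more frequent. They made up 17.3%, 18.2% and 19.4% of the exonic circles in the pregnant libraries and 21.7%, 17.0% and 15.4% in the non-pregnant libraries. In the other hosts the shares were 4.89%, 6.21% and 5.18% in the pregnant libraries and 7.77%, 5.56% and 5.59% in the non-pregnant libraries. No library of the first set fell within the range of the second. The difference averaged 12.3 ± 1.65 percentage points (SD over 6 libraries) and was positive in 6 of 6 libraries (exact sign-flip permutation test, two-sided, p = 0.03125, the smallest that 6 libraries allow). The adjusted value over the 5 features compared was also 0.03125. Libraries share circRNAs and 1 annotation, so these p-values cover the spread between libraries only.

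The genome span of the circles was shorter as well. Its median was 1606, 1450 and 1206 bp in the pregnant libraries and 1229, 1577 and 1476 bp in the non-pregnant libraries. In the other hosts the median span was 5724, 5133 and 5215 bp in the pregnant libraries and 4145, 4657 and 5250 bp in the non-pregnant libraries. The difference was -3597 ± 492 bp (SD, n = 6) and had the same sign in 6 of 6 libraries (exact permutation p = 0.03125). The median exonic circle held 2 exons in every library, against 3 in the other hosts (exact permutation p = 0.03125).

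Intronic circles took 16.2%, 17.8% and 21.2% of the circles of single-circRNA hosts in the pregnant libraries and 15.9%, 16.1% and 17.9% in the non-pregnant libraries. In the other hosts they took 10.05% to 12.8% of the circles. The difference was 6.37 ± 2.21 percentage points (SD, n = 6), again positive in 6 of 6 libraries (exact permutation p = 0.03125). The introns that flank the exonic circles were shorter, with a median of 4217 bases averaged over libraries against 6354 bases in the other hosts, a difference of -2138 ± 354 bases (SD, n = 6; exact permutation p = 0.03125). Both flanking introns were given for 1608 of the 1832 exonic circles.

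A host with many circRNAs enters these comparisons many times, and large genes can give many circles. When each host entered once, with its most abundant circle in the library, the single-exon difference was 11.7 percentage points, the intronic difference 6.75 percentage points, the span difference -1738 bp and the flanking intron difference -1680 bases, each with the same sign in 6 of 6 libraries (exact permutation p = 0.03125). Against hosts with exactly 2 circRNAs the single-exon share was still higher by 6.32 ± 1.65 percentage points and the span shorter by a difference of -659 ± 138 bp, in 6 of 6 libraries each (SD, n = 6; exact permutation p = 0.03125, adjusted 0.0781). The intronic share differed from that of hosts with exactly 2 by 0.839 ± 2.36 percentage points (SD, n = 6; exact permutation p = 0.438) and the flanking introns by -41 ± 376 bases (SD, n = 6; exact permutation p = 0.875). For both, the spread between libraries was larger than the difference. The median exonic circle held 2 exons in single-circRNA hosts and in hosts with exactly 2 circRNAs. When each host entered once, the exon number difference from all other hosts averaged -0.833, negative in 5 of 6 libraries (exact permutation p = 0.0625).

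**Figure D3:**
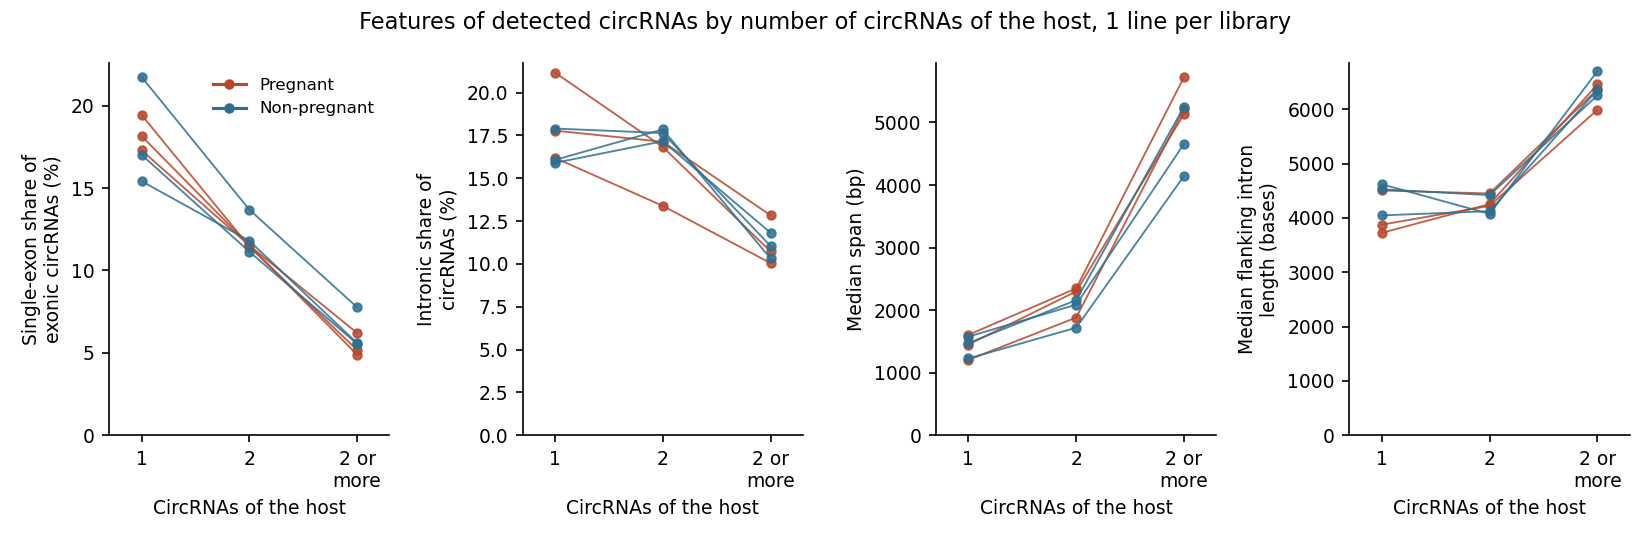
Features of detected circRNAs in each library (1 line per library, pregnant in red, non-pregnant in blue) for hosts with 1, exactly 2, and 2 or more circRNAs (x axis). The panels give the single-exon share of exonic circRNAs (%), the intronic share (%), the median span (bp) and the median flanking intron length (bases), and every line has a lower single-exon share and a longer span at 2 or more than at 1.

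Gene groups differed in how often their hosts gave 1 circRNA. These shares follow from the rule and are given beside the 27.27% over all hosts, with no test. Of the mitochondrial ribosomal protein genes that gave any circRNA, 17 of 30 (56.7%) gave 1. Of the genes named as cytosolic ribosomal proteins, with RPL7L1 among them, it was 18 of 37 (48.6%). Of the genes of steroid hormone and prostaglandin signalling it was 7 of 14 (50%). Zinc finger genes named ZNF had 40 of 110 (36.4%), respiratory chain and ATP synthase genes 9 of 27, proteasome subunits 9 of 27 and cytokine and chemokine receptors 15 of 47 (31.9%). Lower shares were found in integrins (3 of 23, 13.0%) and in kinesins and dyneins (6 of 38, 15.8%). Splicing factors of the SR, SF3 and hnRNP families, listed together with small nuclear ribonucleoproteins such as SNRPE, had 6 of 41 (14.6%). Solute carriers (31 of 147, 21.1%) lay below the share of all hosts, aminoacyl-tRNA synthetases (8 of 30, 26.7%) near it, and G protein-coupled receptors named GPR or ADGR (8 of 24, 33.3%) above it.

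**Figure D4:**
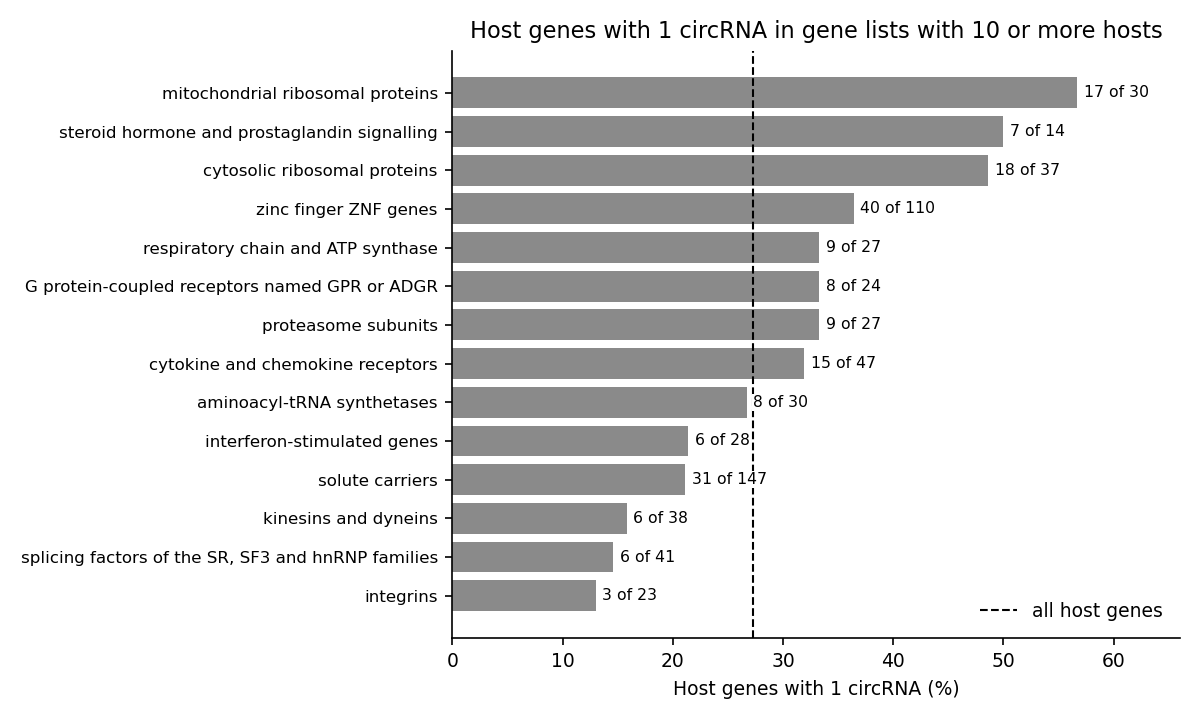
Share of host genes with 1 circRNA (x axis, %) in gene lists that held at least 10 hosts (y axis), with the number of such hosts of all hosts beside each bar and a dashed line for all 8611 host genes. Mitochondrial ribosomal proteins stand highest at 56.7% and integrins lowest at 13.0%, against 27.27% over all hosts.

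Ribosomal protein genes gave sparse circles. The 18 circles of genes named as cytosolic ribosomal proteins had 115 reads in all. The most read one came from RPL7L1, annotated as 60S ribosomal protein L7-like 1. It had none in the pregnant libraries and 17, 0 and 4 in the non-pregnant libraries. RPS4X had 4, 9 and 0 reads in the pregnant libraries and none in the non-pregnant libraries. The 17 circles of mitochondrial ribosomal protein genes had 384 reads. MRPL35, of the large subunit, had 37, 23 and 19 reads in the pregnant libraries and 21, 0 and 83 in the non-pregnant libraries (circRNA806). MRPS18C, of the small subunit, had 16, 9 and 0 in the pregnant libraries and 24, 4 and 10 in the non-pregnant libraries. In both, the groups overlapped.

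Immune receptor genes held 1 deeply read circle. IL10RA, the ligand-binding chain of the interleukin-10 receptor, gave a circle of 2 exons with 164, 251 and 137 reads in the pregnant libraries and 199, 51 and 423 in the non-pregnant libraries (circRNA9397). Its level was 148 ± 24.5 CPM in pregnant and 202 ± 93.7 CPM in non-pregnant animals (SD, n = 3 each), with a log2 fold change of -0.45 and a standard error of 0.76. The non-pregnant values lay on both sides of the pregnant ones. The other 14 circles of cytokine and chemokine receptor genes had 1 to 59 reads. IL21R, the interleukin-21 receptor, had 0, 0 and 6 reads in the pregnant libraries and 0, 5 and 48 in the non-pregnant libraries. TNFRSF11A, the receptor RANK, had 0, 4 and 11 in the pregnant libraries and 0, 0 and 40 in the non-pregnant libraries. NOD2, an intracellular sensor of bacterial cell wall fragments, was the single host among 8 toll-like and NOD-like receptor hosts and had 4 reads in 1 non-pregnant library.

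Interferon-stimulated genes are known markers of early pregnancy in cattle, whose conceptus secretes interferon tau. Of 28 such hosts in these data, 6 gave 1 circRNA. BST2, a membrane protein that tethers enveloped viruses, had 0, 6 and 6 reads in the pregnant libraries and 14, 0 and 33 in the non-pregnant libraries. IFI6 had 0, 7 and 0 reads in the pregnant libraries and none in the non-pregnant libraries, and the 214 reads of IFIT2 were all in non-pregnant replicate 2. DDX58, IRF9 and DTX3L had 5, 3 and 2 reads, all in pregnant libraries. None of the 6 circles passed the filter on low counts, so none was tested. Among genes of steroid hormone and prostaglandin signalling, PGRMC1, a heme-binding protein linked to progesterone, had 0, 10 and 0 reads in the pregnant libraries and 0, 0 and 12 in the non-pregnant libraries. PTGER4 and PTGER3, receptors of prostaglandin E, gave intronic circles with 0 and 12 reads over the pregnant libraries and 22 and 0 over the non-pregnant libraries.

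Among the other lists, SNRPE, a core protein of spliceosomal particles, had 0, 8 and 3 reads in the pregnant libraries and 60, 4 and 15 in the non-pregnant libraries. PSMB9, a subunit of the immunoproteasome, had 7, 29 and 17 reads in the pregnant libraries and 0, 1 and 28 in the non-pregnant libraries. NDUFS4, of complex I, had 0, 27 and 0 in the pregnant libraries and 0, 3 and 50 in the non-pregnant libraries. SLC35A1, the transporter of CMP-sialic acid into the Golgi, had 0, 83 and 0 in the pregnant libraries and 52, 0 and 107 in the non-pregnant libraries. In PSMB9, NDUFS4 and SLC35A1 the groups overlapped, and 1 or more animals without a read stood beside animals with 10 or more reads. The groups of SNRPE overlapped in reads but not in CPM, with 0, 5.63 and 2.95 CPM in the pregnant libraries and 56.3, 9.20 and 10.7 CPM in the non-pregnant libraries. SNRPE did not pass the filter on low counts and was not tested. Of the blood cell markers, SPI1, EOMES, TUBB1 and IL5RA were single-circRNA hosts, with 22, 3, 10 and 1 reads, each in 1 library. EPCAM, an epithelial marker, had 6 reads in non-pregnant replicate 1.

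The last question was whether the circles of single-circRNA hosts differed between pregnant and non-pregnant blood. After adjustment, no single circle did in edgeR with its filter on low counts. Of the 2348, 172 passed the filter on low counts in a fit over 8261 circRNAs, and 0 of the 172 reached an adjusted p under 0.05 with a fold of at least 2, against 0% of all circRNAs tested (edgeR's quasi-likelihood test with Benjamini-Hochberg adjustment). Other fits that kept more of the sparse circles made calls at an adjusted p. Without a filter edgeR called 25 of 2348 (1.06%), against 1.05% of all circRNAs tested. Of the 25, 2 were higher (background 0.0715%) and 23 lower (background 0.975%) in pregnant animals. DESeq2 called 8 of 2327 (0.344%), against 0.283% of all tested, with 0 higher (background 0.00533%) and 8 lower (background 0.277%). All 23 and all 8 of these lower circles had their highest CPM in non-pregnant replicate 2, and 18 of the 23 and all 8 were read in no other library. Neither fit was repeated without that library. At an unadjusted p under 0.05 and the same fold, 7 of 172 (4.07%) stood out, against 3.89% of all tested. Of the 7, 3 were higher in pregnant animals (background 1.43%) and 4 were lower (background 2.46%). With the library totals implied by SRPBM, the authors' scaling to mapped reads, 5 of 184 were higher (background 1.33%) and 0 were lower (background 0.648%). The median log2 fold change over all circRNAs tested was 0.05 with TMM and 0.24 with those totals. No circle of the gene lists above was among the 7, but most circles of the lists did not pass the filter and were not tested. Of the 40 circles of ZNF genes 5 were tested, the most of any list. Blood is a mixture, so fewer cells of a type and less circRNA per cell cannot be told apart.

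Circles of 2 genes were read in every pregnant and in no non-pregnant library among the tested circles past the unadjusted p. PLK3, a polo-like kinase of the stress response, gave a circle of 2 exons at NC_037550.1:100709105-100711064 on the minus strand, with 19, 15 and 26 reads in the pregnant libraries and 0, 0 and 0 in the non-pregnant libraries (circRNA36782). Against a floor of 3 counts over the group, on the CPM scale, its pooled reads were at least 15.8-fold higher in the pregnant group (unadjusted p = 0.00932, adjusted p = 0.983, edgeR). Such a bound pools the animals of a group and does not cover the spread between them. LOC102413458, whose best protein match is a phosphatidylcholine transfer protein-like sequence, gave an intronic circle with 12, 19 and 22 reads in the pregnant libraries and none in the non-pregnant libraries (ciRNA5493). Its pooled reads were at least 14.0-fold higher by the same bound (unadjusted p = 0.0121, adjusted p = 0.983, edgeR). PWWP2A, a chromatin reader that binds nucleosomes with a variant histone, had 40, 57 and 43 reads in the pregnant libraries and 5, 0 and 0 in the non-pregnant libraries (circRNA1296). Its level was 38.3 ± 5.03 CPM in pregnant and 1.56 ± 2.71 CPM in non-pregnant animals (SD, n = 3 each), with a log2 fold change of 4.41 and a standard error of 1.45 (unadjusted p = 0.0141, adjusted p = 0.983, edgeR). In these 3 circles each pregnant value lay above each non-pregnant value. All 3 passed the filter on low counts through their pregnant libraries, so their place among the tested circles lends no support to a difference.

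Over the tested circles, 14 of 172 had groups that did not overlap in CPM, against 12% of all circRNAs tested. Of these, 9 were higher in pregnant animals (background 8.16%) and 5 were lower (background 3.87%). Among the higher ones, B3GNT3, a glycosyltransferase that extends carbohydrate chains of cell surface proteins, had 142, 79 and 74 reads in the pregnant libraries and 35, 8 and 38 in the non-pregnant libraries (circRNA1674). SDE2, a protein of the replication stress response, had 48, 43 and 48 in the pregnant libraries and 18, 3 and 27 in the non-pregnant libraries (circRNA11384). The log2 fold changes were 1.63 ± 0.84 for B3GNT3 and 1.40 ± 0.87 for SDE2 (standard error, edgeR, adjusted p = 0.983 for both). Both groups of values stayed apart in reads and in CPM, and neither reached an unadjusted p under 0.05.

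Among the lower circles, DAG1 and RDH10 were apart on every scale. DAG1 encodes dystroglycan, which links the cytoskeleton to the extracellular matrix, and gave a single-exon circle of 402 bp with 13, 10 and 18 reads in the pregnant libraries and 41, 32 and 48 in the non-pregnant libraries (circRNA5108). Its level was 11.8 ± 5.42 CPM in pregnant and 48.8 ± 21.5 CPM in non-pregnant animals (SD, n = 3 each), with a log2 fold change of -2.04 and a standard error of 0.88 (unadjusted p = 0.0462, adjusted p = 0.983, edgeR). Without non-pregnant replicate 2 the log2 fold change of DAG1 was -1.65, and its unadjusted p was 0.0537 to 0.146 when any 1 library was left out (edgeR). RDH10, a retinol dehydrogenase of retinoic acid synthesis, had 52, 129 and 63 reads in the pregnant libraries and 181, 193 and 152 in the non-pregnant libraries (circRNA5352), with a log2 fold change of -1.88 and a standard error of 0.89. Without non-pregnant replicate 2 it was -1.11. The intronic circle of PQLC3, a PQ-loop membrane protein, had 13, 10 and 14 reads in the pregnant libraries and 67, 9 and 69 in the non-pregnant libraries (ciRNA571), and was apart in CPM but not in reads. For PQLC3 the unadjusted p was 0.0458 with all libraries, 0.0151 without non-pregnant replicate 2 and 0.0879 to 0.141 without any other (edgeR).

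Of the other lower circles, those of CHI3L2 and LOC102406197 depended on non-pregnant replicate 2. CHI3L2, a chitinase-like protein, had 6, 0 and 9 reads in the pregnant libraries and 11, 193 and 9 in the non-pregnant libraries (circRNA1891). Its log2 fold change was -5.05 with all libraries and -0.89 without that one. Of the 4 circles lower at an unadjusted p, TGS1, CHI3L2 and DAG1 had their highest CPM in non-pregnant replicate 2, which was the highest library for 30 of the 172 tested circles. LOC102406197 had a log2 fold change of -2.16 with all libraries and -0.53 without it (circRNA13285). TRIM44 had 10, 14 and 2 reads in the pregnant libraries and 14, 6 and 57 in the non-pregnant libraries (circRNA9203), and its groups were apart in CPM only. Its log2 fold change was -1.75 with all libraries, -2.03 without non-pregnant replicate 2 and -1.01 without non-pregnant replicate 3, its highest library.

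**Figure D5:**
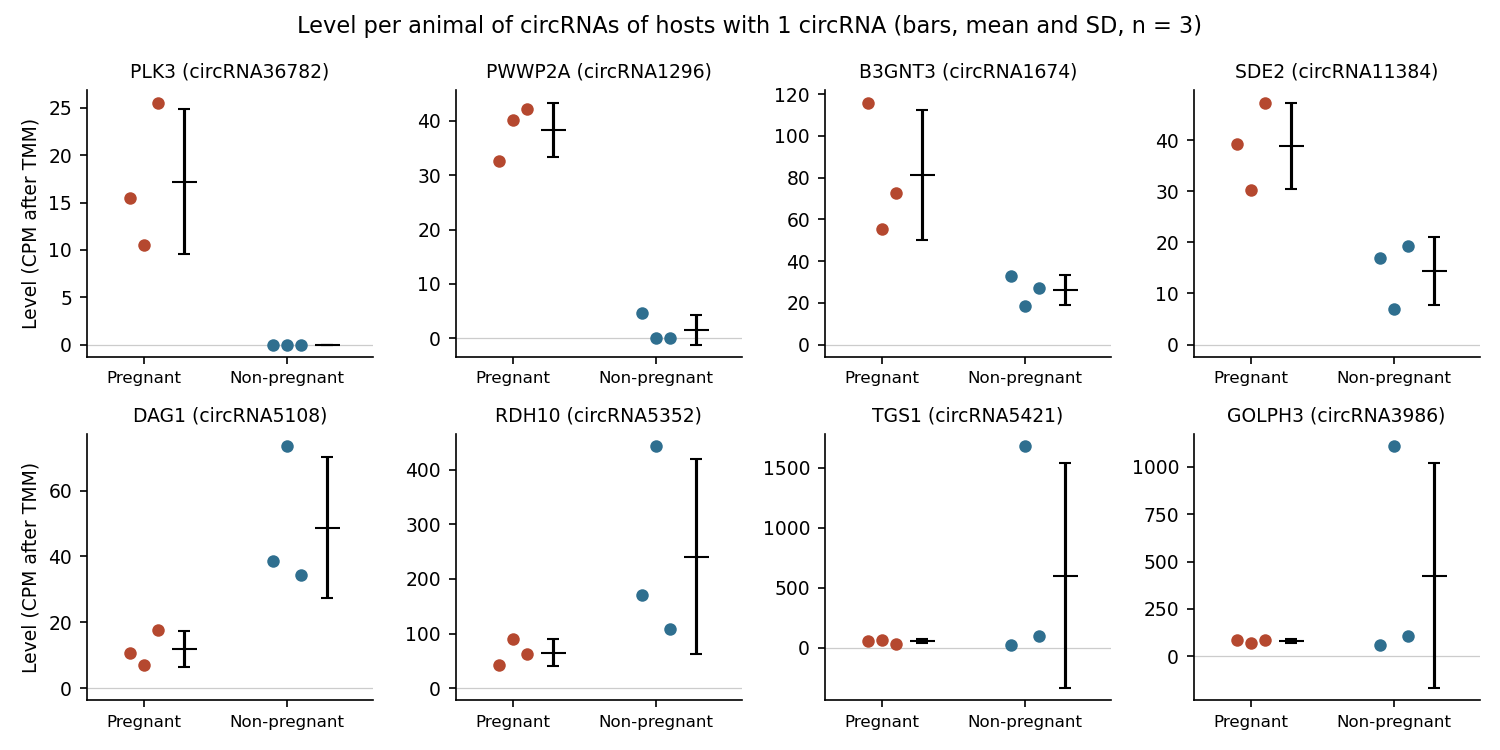
Level (y axis, CPM after TMM) of 8 circles of hosts with 1 circRNA in 3 pregnant (red, left) and 3 non-pregnant (blue, right) animals, with the mean and SD beside the points. PLK3, PWWP2A, B3GNT3 and SDE2 are higher and DAG1 and RDH10 lower in every pregnant animal, while TGS1 and GOLPH3 overlap and have 1 high value in non-pregnant replicate 2.

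Of all 2348 circles, 11 were read in every pregnant and no non-pregnant library, against 0.746% of the circRNAs with a named host, and 5 in every non-pregnant and no pregnant library, against 0.224%. PLK3 was the deepest of the 11 with 60 reads, followed by intronic circles of LOC112577987, with 33, 10 and 13 reads in the pregnant libraries, of LOC102413458, and of CDH20, a cadherin, with 31, 6 and 10 reads. REST, a repressor of neuronal genes, DEXI and SREBF1, a regulator of lipid synthesis, were also among the 11, with 38, 34 and 26 reads over the pregnant libraries. The 5 in the other direction were shallow. CCDC68 had 0 reads in the pregnant libraries and 11, 2 and 4 in the non-pregnant libraries. Its pooled reads were at least 7.16-fold lower in the pregnant group. EGFR, the epidermal growth factor receptor, had none in the pregnant libraries and 1, 3 and 8 in the non-pregnant libraries, with pooled reads at least 5.06-fold lower. By animal, its non-pregnant levels were 0.94, 6.90 and 5.72 CPM. The bounds on pooled reads do not cover the spread between animals. TNFRSF13B, the tumor necrosis factor receptor family member TACI, had none in the pregnant libraries and 6, 1 and 2 in the non-pregnant libraries. With no read, a level of up to 2.11 to 2.95 CPM remained possible in a pregnant library and of up to 2.15 to 6.90 CPM in a non-pregnant library, the highest in non-pregnant replicate 2. For such shallow circles absence was not detectable at this depth.

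The share of these circles among the blood circRNAs overlapped between the groups and is given with no test. Circles of single-circRNA hosts made up 3.33%, 3.55% and 3.15% of the host circRNAs read in the pregnant libraries and 3.25%, 2.80% and 3.68% in the non-pregnant libraries. The means were 3.34 ± 0.200% in pregnant and 3.24 ± 0.441% in non-pregnant animals (SD, n = 3 each). After thinning every library to 815851 reads, the means were 3.31% in pregnant and 3.20% in non-pregnant animals. Their share of the reads was 1.51 ± 0.0731% in pregnant and 1.42 ± 0.153% in non-pregnant animals (SD, n = 3 each). These differences were smaller than the SD between non-pregnant animals.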

How the data were processed

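The authors deposited 1 table with a read count per circRNA and library, not normalized, together with a signal named SRPBM, in which the counts of each library are divided by a constant for its mapped reads. The study's methods name Bowtie2, Tophat2, Tophat-fusion, CIRCExplorer and CIRI on buffalo assembly ASM312139v1, while the submitters' notes list HISAT2, StringTie, edgeR, fastp, ChIPseeker and HOMER with build GRCh38.p10. Which pipeline gave these counts is not stated in those sources. Coordinates are as deposited, on NC_ sequences. No genome of that build was used, so no sequence is shown and the planned comparison of host gene structure was not run.

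Groups came from the sample labels. The members and gene lists were chosen with earlier results of these data known. The group comparison ran on counts of all circRNAs with edgeR 4.0.16 in R 4.3.3 (quasi-likelihood test, TMM factors, its default filter on low counts, Benjamini-Hochberg adjustment), and exact tests with Python 3.11.15 and scipy 1.17.1. A circRNA was detected with 1 read. Span is end minus start plus 1, and flanking intron length is the mean of both introns in the table. Named circles were the 10 with the highest mean CPM, up to 6 per direction with the smallest unadjusted p and groups that did not overlap, up to 4 per direction read in all libraries of 1 group only, up to 3 per gene list with the most reads, and the extremes of exon number and span with at least 10 reads. FILIP1, CEP41, GRM5, PAK5, CHI3L2, REST, DEXI, SREBF1, BCL3, RCC2 and RBFOX2 were named after their values were seen.

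Libraries held 815851 to 1298753 counts. The reads carry no molecular identifiers, and floors of 3 counts, set on the TMM-normalised library sizes, cover counting error only. The steps were tested on simulated data. Alternatives were DESeq2 1.42.0, limma 3.58.1 on log2(SRPBM + 1), RLE factors, SRPBM totals, other filters, a replicate block, leaving out each library, other rules for what counts as a circRNA and, chosen after seeing the data, thinning, circRNAs of 5 to 20 reads, hosts with exactly 2 circRNAs, 1 circRNA per host, and leaving out members that overlap an intergenic circRNA.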

Additional observations from a re-analysis of the deposited data

How the results depend on the processing

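The count of circles of single-circRNA hosts past the fold and unadjusted p (7 of 172) was 50 of 2348 with no filter (2.13%, against 3.70% of all circRNAs tested), 28 of 2327 with DESeq2 (1.20%, against 1.6%) and 3 of 172 with limma (1.74%, against 4.41%). It was 5 to 21 when 1 library was left out, between 5 of 216 without pregnant replicate 1 (2.31%, against 3.82%) and 21 of 217 without non-pregnant replicate 3 (9.68%, against 9.14%), with 13 of 263 without non-pregnant replicate 2 (4.94%, against 4.34%). At an adjusted p (0) it was 25 with no filter and 8 with DESeq2, and 0 in each fit without 1 library. The fits without 1 library kept the default filter of edgeR, so they do not bear on the 25 and the 8. With the replicate number as a block the unadjusted count was 1 of 172 (0.581%, against 1.79%). Of the 7, 1 was also past the fold and unadjusted p with a filter at a mean count of 20 and 5 with no filter. With SRPBM totals, with DESeq2 and with limma it was 3 each. Not all 7 had a result in each fit. PLK3 and LOC102413458 had none with the filter at 20, CHI3L2 none with DESeq2 or SRPBM totals, and TGS1 none with DESeq2. Same-numbered libraries did not deviate together (r of -0.108, -0.053 and -0.033, against -0.076 to 0.140 in the other pairs). The labels do not say what the numbers stand for, and a shared batch was not tested. The log2 fold change of ECH1 turned to 0.46 (SRPBM totals), 0.28 (mean count of 20), 0.023 (replicate block), 0.48 (limma), and ranged between -0.30 and 0.27 when 1 library was left out. That of RAB19 turned to 0.46 (SRPBM totals), 0.25 (mean count of 20) and 0.40 (limma), and ranged between -0.20 and 0.21. That of PYROXD1 turned to -0.0067 with no filter and ranged between -0.31 and 0.76. That of ZNF608 turned to 0.036 with limma. The cause was not tested. The share of hosts with 1 circRNA (27.27%) was 30.1% at 5 reads, 34.7% at 2 libraries, 28.4% after merging ends within 1 bp, 28.7% within 5 bp, and 27.6% to 28.5% when 1 library was left out. With 5 libraries the sign-flip test cannot go below 0.0625. The differences then ranged between 11.9 and 12.8 percentage points (single-exon share), 5.56 and 6.83 percentage points (intronic share), -3733 and -3492 bp (span) and -2220 and -2019 bases (flanking introns), and the exon number stayed at -1. At 5 to 20 reads a library, the intronic difference was 3.36 percentage points and the flanking intron difference -992 bases (exact permutation p = 0.0938 for both). Against hosts with exactly 2 circRNAs, the intronic difference was 0.839 percentage points, the exon number difference 0 and the flanking intron difference -41 bases, and with 1 circRNA per host the exon number difference was -0.833 (exact permutation p = 0.0625). The difference in the share of detected circRNAs (0.097 percentage points, pregnant minus non-pregnant) ranged between -0.126 (without non-pregnant replicate 2) and 0.315 when 1 library was left out, with -0.0064 without pregnant replicate 2, and that in the share of reads (0.0873) to -0.138 when circRNAs had to be read in 2 libraries. Unadjusted p-values of single circles moved across 0.05 too. That of DAG1 was 0.123 with a filter at a mean count of 20, 0.289 with SRPBM totals and 0.173 with limma, and that of PQLC3 was 0.111, 0.186 and 0.185. With the filter at 20 it was 0.0658 for TGS1 and 0.0818 for CHI3L2. Host gene structure was not run, since no annotation of the build was used.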

Other observations

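All 516 intronic circles of single-circRNA hosts began at the first base of their intron, as all 7350 of the other hosts did. Whether the calling of intronic circles sets this start was not tested, so it is no trait of these circles. The intronic circles of single-circRNA hosts and of other hosts differed in where they ended. This was looked at after the values were seen and is given with no test. In single-circRNA hosts 222 (43.0%) ran to the last base of the intron and 197 (38.2%) stopped 10 to 50 bases before it, the stretch in which branch points usually lie. In hosts with exactly 2 circRNAs the shares were close to these, at 44.9% and 35.2%, so this ending is not particular to single-circRNA hosts. In hosts with 2 or more circRNAs 70.7% ran to the last base and 16.5% stopped in that stretch. The introns differed in length, with a median of 573.5 bases in single-circRNA hosts and 1945 bases in the others. In introns under 500 bases the share that ran to the last base was 28.1% in single-circRNA hosts and 29.9% in the others, and in introns of 2000 bases or more it was 89.4% and 97.2%. In introns of 500 to under 2000 bases it was 35.4% and 58.4%. By library, 39.7% to 57.4% of the intronic circles of single-circRNA hosts ran to the last base, against 72.6% to 82.7% in the other hosts.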
